A study of Homo sapiens with 4 samples.

Results

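Interferon-stimulated genes are the genes whose transcription rises when a cell senses interferon. A list of 44 of them was followed in 2 human colorectal cancer cell lines, DLD-1 and HT-29, treated with 5-aza-2'-deoxycytidine, a cytosine analogue used to lower DNA methylation. The members are the list genes whose symbol the array platform gives to a spot, with RIGI also accepted under its older symbol DDX58. This held for 37 of the 44 genes, on 42 of 30336 spots, among 12977 named genes in all. IFIT2, IFI27, IFITM3, STAT2, TRIM22, ADAR and RSAD2 carried no platform symbol and were not counted. Of the 37 members, 28 were measured on all 4 arrays, beside 9090 named genes. Measured means that at least 1 channel exceeded its local background by more than 2 background SD on every array in question. On both DLD-1 arrays 30 members were measured, with IFITM1 and MX2 added, and on both HT-29 arrays 29, with EIF2AK2 added.

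The groups were DLD-1 cells and HT-29 cells given 1 µM of the drug for 96 h, starting 24 h after plating, each set against untreated cells of the same line. For each line, array 1 carried the treated RNA in the Cy5 dye, and array 2 carried it in Cy3, per the labels. Both arrays of a line count as 1 replicate, and the labels name no separate cultures. Each line is a single established cancer line, and treated cells were compared only within their own line. These are bulk RNA measurements, in which fewer cells of a type and less RNA per cell cannot be told apart.

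Interferons bind receptors at the cell surface and activate the kinases JAK1 and TYK2. A complex that contains STAT2 and IRF9 then enters the nucleus and binds the interferon-stimulated response element, or ISRE, in the promoters of its targets. The targets include sensors and binders of viral RNA, the ubiquitin-like protein ISG15 with its enzymes, membrane proteins that restrict virus entry or release, and large GTPases. In epithelial cells the same genes can be reached from inside, when double-stranded RNA is sensed by RIG-I or MDA5 and interferon is then made. Transcripts of endogenous retroviruses are a known source of such RNA in cells given DNA methylation inhibitors.

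Which file channel this is on array 2 is unknown, because the scanner files number their channels and name no dye. In the working reading, file channel 2 holds the treated RNA on all 4 arrays. This reading was chosen in part from the signs of the strongest probes. In the order of the labels, array 2 of each line has the opposite sign, and array 1 of each line reads the same under both. A log2 ratio is given throughout as treated over untreated in the working reading, after loess normalization, and the mean in the labels' order stands beside each main result. Across 18868 probes the DLD-1 arrays correlated in their log2 ratios at −0.45 in the working reading, those of the HT-29 arrays at 0.00, those of both arrays numbered 1 at 0.51 and those of both arrays numbered 2 at −0.20, and probes are not independent replicates. The DLD-1 correlation becomes 0.45 in the labels' order. Over the 28 members the working correlations were −0.31, 0.35, 0.54 and −0.46 in the same order. Position in the 48 printed blocks accounted for 21.6% to 50.8% of the variance of the log2 ratios on an array.

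Signal above background was common across the array. Of 37 members, 26 to 31 were above background in a given channel, or 70.3% to 83.8%, against 71.9% to 89.6% of all named genes. All 11 markers of colorectal epithelium were on the array, and 9 were above background in both channels of both DLD-1 arrays and 10 on both HT-29 arrays. By the same measure 4 of 5 T and B cell markers, 4 of 6 myeloid, 5 of 6 fibroblast and 2 of 3 endothelial markers were above background in DLD-1. In HT-29 these were 3 of 5, 3 of 6, 4 of 6 and 1 of 3. Signal above background was therefore not read as expression of a gene. In both channels of all 4 arrays 20 members exceeded background, and IFI44L and OAS2 did so in none.

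Promoter sequences, from 250 bases before to 50 bases after the start of a gene, were available from RefSeq (GRCh38.p14) for 35 of the 44 list genes. They show where the element of the interferon response lies in the list. The ISRE core was searched on both strands as GAAA, any 2 bases and GAAA again, which on the other strand reads TTTC, any 2 bases and TTTC. It was present in 21 of 35 promoters, or 60%, against 996 of 27303 promoters of all genes, or 3.65%. The core of the gamma-activated site, TTCNNNGAA, which reads the same on both strands, overlaps an ISRE core in some promoters, that of IFITM1 among them. It was in 8 of 35, or 22.9%, against 7.88% of all promoters. The list was assembled from genes known to respond to interferon, so these shares describe it and were given no test. A match is a description of the letters and not a binding site.

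**Figure D1:**
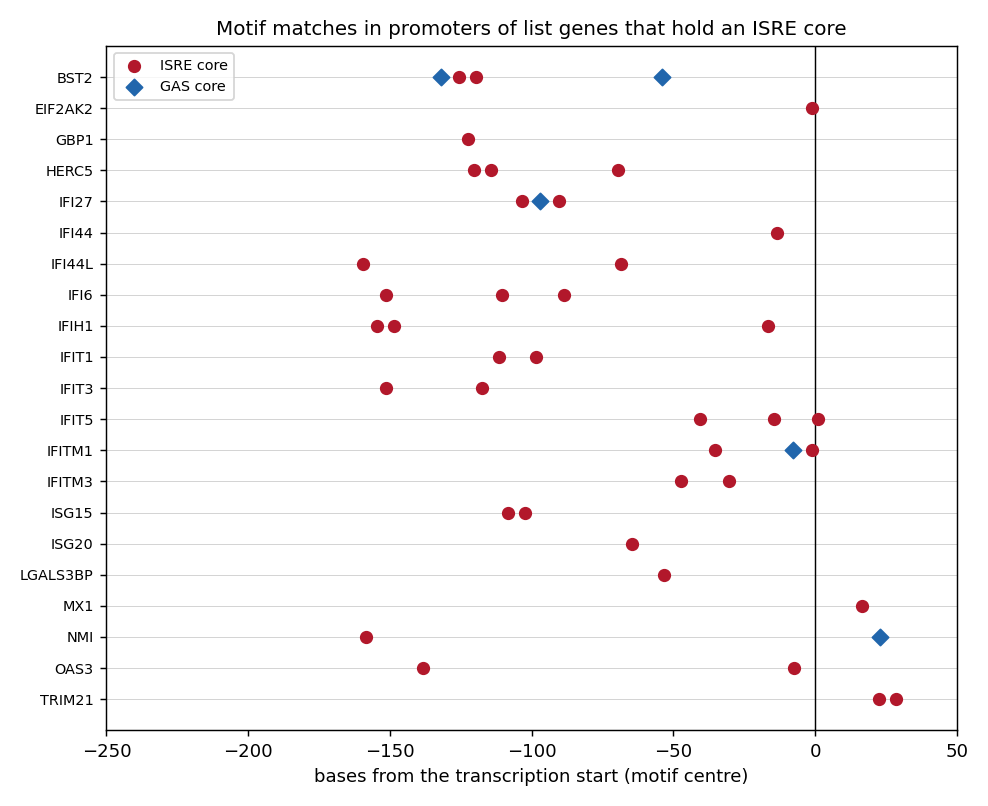
Position of ISRE core matches (circles) and gamma-activated site matches (diamonds) in the promoters of the 21 list genes that hold an ISRE core. The horizontal axis gives bases from the transcription start to the motif centre, and most circles lie upstream of the start.

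Promoters of 4 members are shown, that of IFITM1 because it had the largest ratio in DLD-1 in the working reading, and those of ISG15, NMI and UBE2L6 because their mean ratios in HT-29 were the largest in size in that reading. With the sign of array 2 turned the largest were IFI16 in DLD-1, at −0.98, and RIGI in HT-29, at 0.68. The promoter of IFITM1 lies at chr11:313790-314089 on the plus strand. That of ISG15 lies at chr1:1013247-1013546 on the plus strand, that of UBE2L6 at chr11:57567886-57568185 on the minus strand and that of NMI at chr2:151289619-151289918 on the minus strand. Each is written 5′ to 3′ in the direction of its gene, and capitals mark the ISRE core.
IFITM1: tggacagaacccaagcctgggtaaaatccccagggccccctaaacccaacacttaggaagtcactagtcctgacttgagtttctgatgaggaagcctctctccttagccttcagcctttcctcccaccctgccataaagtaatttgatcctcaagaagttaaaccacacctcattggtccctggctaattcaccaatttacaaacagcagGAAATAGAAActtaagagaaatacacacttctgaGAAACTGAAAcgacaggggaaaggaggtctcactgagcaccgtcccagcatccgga
ISG15: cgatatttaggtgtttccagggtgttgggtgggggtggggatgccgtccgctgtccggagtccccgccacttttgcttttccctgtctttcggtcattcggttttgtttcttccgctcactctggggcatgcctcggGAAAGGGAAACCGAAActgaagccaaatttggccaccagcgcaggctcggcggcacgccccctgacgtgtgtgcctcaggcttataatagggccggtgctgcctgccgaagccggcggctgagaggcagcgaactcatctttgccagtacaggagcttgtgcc
UBE2L6: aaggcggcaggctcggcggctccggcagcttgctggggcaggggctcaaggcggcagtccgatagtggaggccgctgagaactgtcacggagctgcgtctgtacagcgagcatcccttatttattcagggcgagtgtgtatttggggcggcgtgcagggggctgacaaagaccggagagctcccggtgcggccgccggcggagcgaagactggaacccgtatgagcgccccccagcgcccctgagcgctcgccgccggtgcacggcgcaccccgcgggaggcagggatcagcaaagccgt
NMI: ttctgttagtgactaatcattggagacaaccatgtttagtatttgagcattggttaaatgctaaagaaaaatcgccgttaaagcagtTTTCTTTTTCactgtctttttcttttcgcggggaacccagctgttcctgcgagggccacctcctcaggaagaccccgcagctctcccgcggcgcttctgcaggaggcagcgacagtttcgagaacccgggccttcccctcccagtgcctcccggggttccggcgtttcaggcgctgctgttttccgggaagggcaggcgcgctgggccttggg
IFITM1 holds a pair of cores close to its start, ISG15 a pair that overlap each other, and NMI 1 core in the opposite orientation. UBE2L6 holds none in this window. CpG dinucleotides numbered 3 in the IFITM1 window, 20 in that of ISG15, 32 in that of UBE2L6 and 19 in that of NMI. The median was 8 over the 35 list promoters, 14 over all 27303 promoters and 24 over promoters of genes named on the array. The ratio of observed to expected CpG was above 0.6 in 14 of the 35, or 40%. This share was 48.9% over all promoters and 72.1% over those of genes named on the array. Of the 30 list promoters whose gene had a platform symbol, 11 were above 0.6, or 36.7%. Methylation was not measured in the files used here.

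Across both lines, no member passed limma at an adjusted p of 0.05. That test set the 2 line means against 0 over all 9090 named genes, of which 21, or 0.231%, passed, 17 higher (0.187%) and 4 lower (0.044%) in treated cells. At an unadjusted limma p of 0.05, 5 of 28 members, or 17.9%, passed, against 5.02% of all named genes. The 4 with positive ratios, ISG15, RIGI, UBE2L6 and IFIT1, were 14.3% of members, against 3.21% of all named genes, and NMI was the single member with a negative ratio, against 1.8%. With the sign of both arrays 2 turned, no member passed after adjustment, where 0.638% of all genes did, 0.616% higher and 0.022% lower. Unadjusted, 2 of 28 members passed, against 11% of all genes. These were ISG15, with a positive ratio, against 9.16% of all genes, and IFI16, with a negative one, against 1.86%.

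The members' median of the mean log2 ratio over both lines was 0.19, against 0.01 for all named genes, and 23 of 28 were positive, against 51.2% of all named genes. The members' median in the labels' order was 0.05, against 0.05 for all genes, and 15 of 28 were positive, against 56.7%. In DLD-1 the median over 30 members was 0.07 in the working reading, against −0.04 for all genes, and in HT-29 over 29 members it was 0.22, against −0.00. With the sign of array 2 turned these were 0.05 against 0.07 in DLD-1, and −0.0042 against 0.04 in HT-29. By array the members' median was 0.22 on DLD-1 array 1, 0.07 on DLD-1 array 2, 0.20 on HT-29 array 1 and 0.34 on HT-29 array 2. Positive members numbered 20, 15, 19 and 21 of 28 in the same order, against 53.2%, 44.3%, 56.6% and 48.9% of all named genes.

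**Figure D2:**
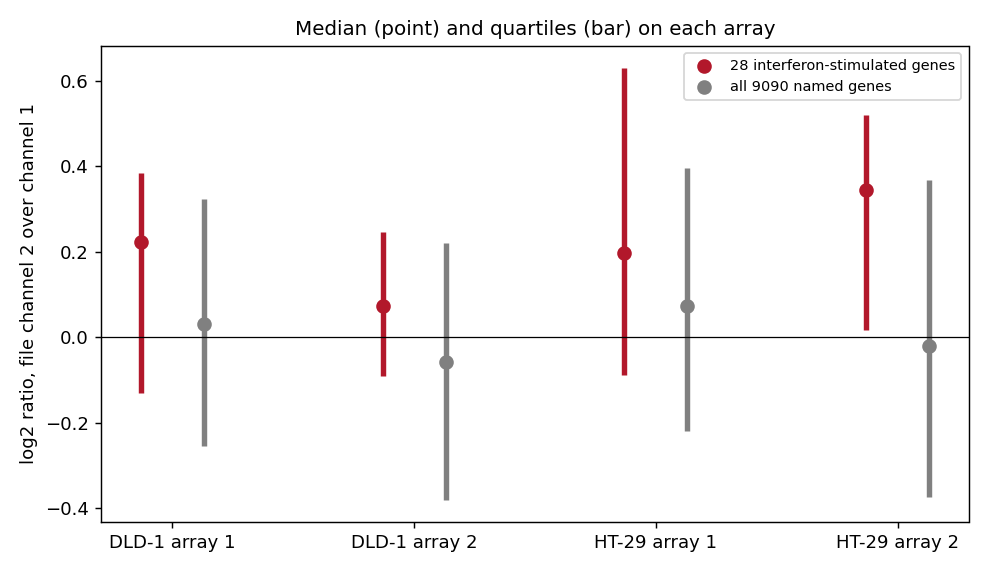
Median (point) and quartiles (bar) of the log2 ratio, file channel 2 over channel 1, for the 28 members and for all 9090 named genes on each array. The members' median lies above that of all genes on each of the 4 arrays in this reading, between 0.07 and 0.34.

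**Figure D3:**
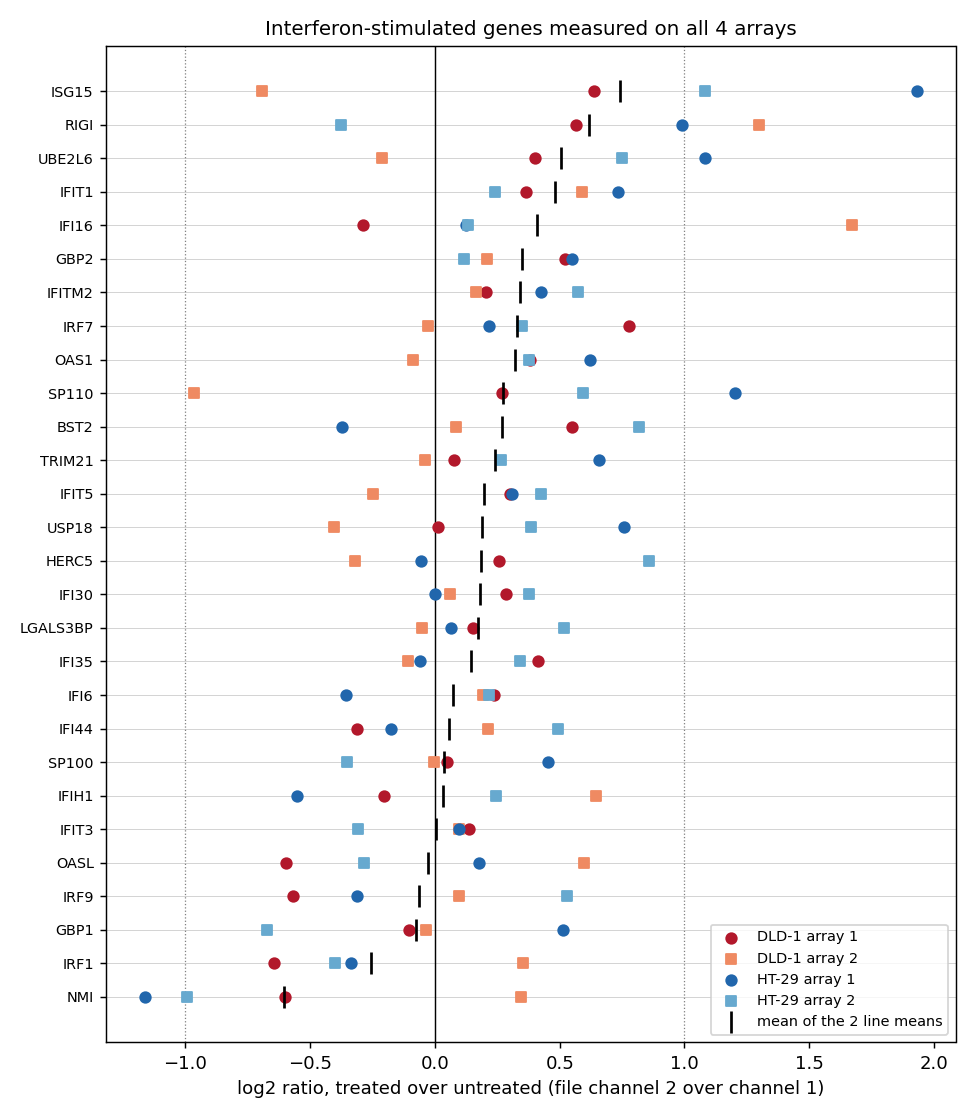
Log2 ratio, file channel 2 over channel 1, of each of the 28 members on the 4 arrays. ISG15, at the head of the ordering, spans −0.69 to 1.93, and NMI is negative on 3 of 4 arrays.

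At a ratio of at least 2-fold with 1 sign on both arrays of a line, 1 of 30 members was higher in treated DLD-1 cells, against 0.157% of 10185 named genes, and none was lower, against 0.00982%. In HT-29, 1 of 29 was higher, against 0.116% of 10381 named genes, and none was lower, against 0.0289%. These members were IFITM1 in DLD-1 and ISG15 in HT-29. A line is 1 replicate, so no p is given for these counts. The working reading was chosen in part from the signs of the strongest probes, so these counts are not independent of that choice. None of the members met the threshold in the labels' order, where 0.304% of genes had higher and 0.0196% lower treated signal in DLD-1, and 0.222% higher and 0% lower in HT-29.

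**Figure D4:**
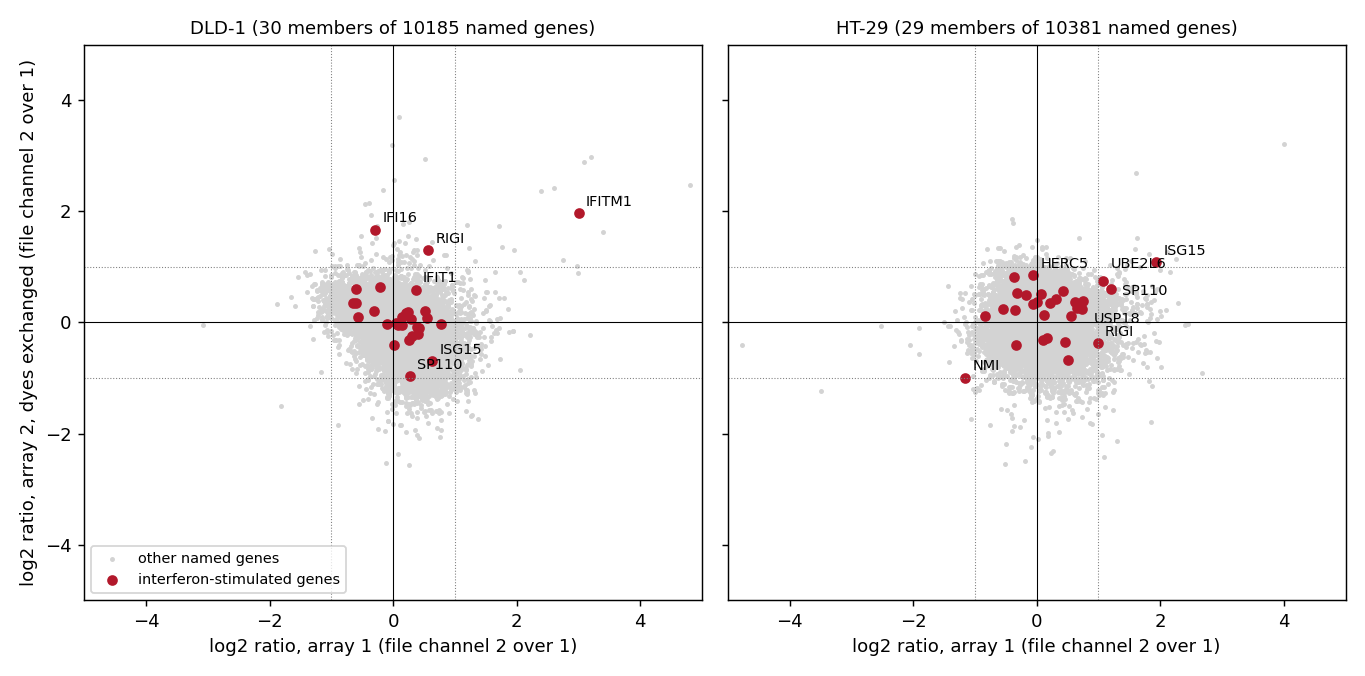
Log2 ratio of each named gene on array 2 (vertical) against array 1 (horizontal) of its line, with members in red and dotted lines at 1 and −1. Genes in the upper right corner were higher in treated cells on both arrays in the working reading, and genes in the lower right corner would be so in the labels' order; IFITM1 stands in the upper right for DLD-1 and ISG15 for HT-29.

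Among the membrane-associated restriction factors, IFITM1 had the largest ratio of any member in either line in the working reading. Both measured members of this group had positive means over both lines, against 51.2% of all genes, and 0 of them in the labels' order, against 56.7%. The IFITM proteins sit in membranes and hinder the fusion of incoming viruses. On DLD-1 array 1 its background-subtracted intensity was 3946.5 in treated and 162.9 in untreated cells, and on array 2 it was 525.2 in treated and 36.5 in untreated cells. Treated signal was above background on both arrays and untreated signal on neither, so IFITM1 was at least 5.21-fold higher in treated DLD-1 cells in the working reading, where the bound sets the dim side at the lowest signal that counted as above background. Such a pattern, above background on both arrays when treated and on neither when untreated, held for 19 of 10185 named genes, or 0.187%. This count set no threshold on the ratio. Its log2 ratios were 3.0 and 1.97, with a mean of 2.49 ± 0.73 (SD over 2 arrays), and 2.71 and 1.95 with block medians set to 0. The labels' order would give a mean of 0.52, with opposite signs on the arrays.

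In HT-29, IFITM1 had 45.5 in treated and 52.8 in untreated cells on array 1, neither above background, and 1291.0 in treated and 712.7 in untreated cells on array 2, with only the treated channel above it. It was therefore not measured on both HT-29 arrays, and the difference between the lines was not tested. IFITM2, its close homologue, lay between the 98.8 and 99.7 percentile of mean signal on the 4 arrays. Its intensities were 44691.9 in treated and 25689.4 in untreated cells on DLD-1 array 1, and 22227.2 in treated and 36416.2 in untreated cells on array 2. On the HT-29 arrays they were 12592.8 in treated and 7711.4 in untreated cells, and 14391.7 in treated and 12790.2 in untreated cells. Loess removes the average dye bias of an array at each level of signal. A log2 ratio can therefore differ in sign from the intensities above it, as on DLD-1 array 2. After loess the ratios of IFITM2 were 0.21, 0.16, 0.43 and 0.57, on the DLD-1 and then the HT-29 arrays, with a mean of 0.34, and −0.03 in the labels' order. IFITM1 and IFITM2 share much of their sequence, and the cross-hybridization of their probes was not tested. BST2, or tetherin, which holds budding virions at the cell surface, had ratios of 0.55 and 0.09 in DLD-1 and −0.37 and 0.82 in HT-29. Its mean signal differed between the arrays of a line, at the 27.7 and 94.3 percentile in DLD-1 and the 43.6 and 91.4 percentile in HT-29. Untreated signal of BST2 on DLD-1 array 1 did not exceed background.

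The ISG15 system was positive in its mean over both lines at each of its 4 members, with a median of 0.35, although in DLD-1 alone the median was −0.03 and in HT-29 0.74. In the labels' order 3 of 4 were positive, with HERC5 at −0.08 and a median of 0.22, and over all named genes 51.2% were positive in the working reading and 56.7% in the labels' order. ISG15 is a ubiquitin-like protein that is attached to other proteins after induction. In HT-29, its intensity was 6241.6 in treated and 1541.7 in untreated cells on array 1, and 12939.7 in treated and 6994.8 in untreated cells on array 2, all above background. Treated cells were the brighter on both arrays. The log2 ratios were 1.93 and 1.08, with a mean of 1.51 ± 0.60 (SD over 2 arrays), or 2.84-fold. The labels' order would give an HT-29 mean of 0.42. With block medians set to 0, to remove the position on the slide, the HT-29 ratios were 1.66 and 0.79, which ends the 2-fold call.

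In DLD-1, ISG15 had 5986.0 in treated and 3199.8 in untreated cells on array 1, and 3587.8 in treated and 7502.1 in untreated cells on array 2. The arrays disagreed in sign, with ratios of 0.64 and −0.69 and a mean of −0.03 ± 0.94 (SD over 2 arrays). Over both lines ISG15 had the largest mean of the 28 members, at 0.74, with a limma p of 0.000603 and an adjusted p of 0.125. The moderated SE of 0.216 was shared by all 28 members, so the distance between the line means of ISG15 did not enter its p. In the labels' order the mean was 0.54 and the adjusted limma p 0.35. Without DLD-1 array 2 the mean of ISG15 was 1.07 with an adjusted limma p of 0.000797, and over the other settings tried its adjusted p lay between 0.106 and 1.00. It was positive on 3 of 4 arrays in the working reading.

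UBE2L6, the E2 enzyme that passes ISG15 to its targets, had in HT-29 495.6 in treated and 69.4 in untreated cells on array 1, and the untreated signal did not exceed background there. On HT-29 array 2 it had 7201.4 in treated and 3720.1 in untreated cells. Its log2 ratios there were 1.08 and 0.75, with a mean of 0.91 ± 0.24 (SD over 2 arrays), or 1.89-fold, and a mean of 0.17 in the labels' order. In DLD-1 the ratios were 0.40 and −0.21. The mean over both lines was 0.50, with a limma p of 0.0194 and an adjusted p of 0.723, and it was 0.24 in the labels' order. USP18, the protease that removes ISG15, had ratios of 0.76 and 0.39 in HT-29 and 0.01 and −0.40 in DLD-1. HERC5, the main E3 ligase for ISG15, had ratios of −0.06 and 0.86 in HT-29 and 0.26 and −0.32 in DLD-1.

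**Figure D5:**
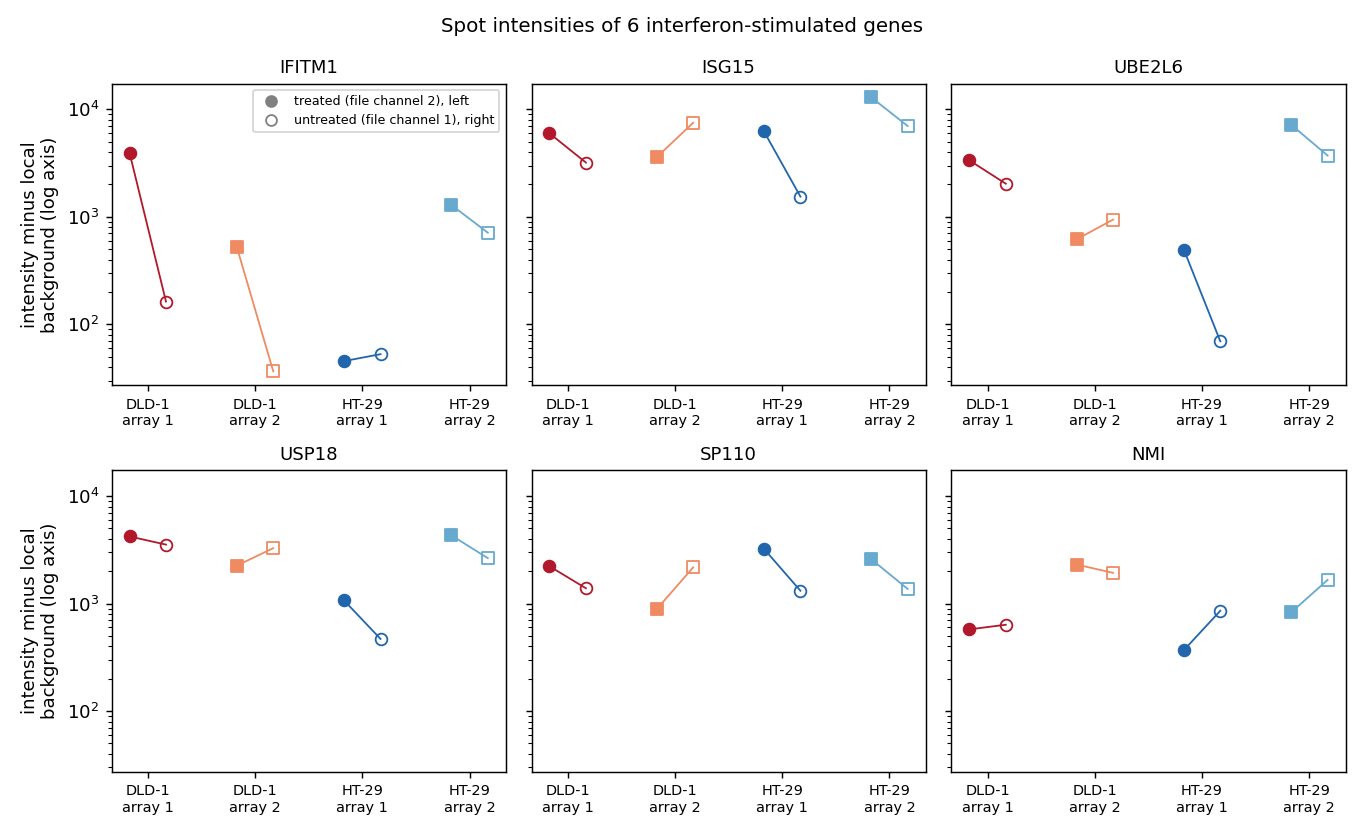
Background-subtracted intensity (log axis) of IFITM1, ISG15, UBE2L6, USP18, SP110 and NMI on the 4 arrays, with treated cells (file channel 2) as the filled left point and untreated cells (file channel 1) as the open right point, before loess normalization. IFITM1 separates on both DLD-1 arrays, ISG15, UBE2L6, USP18 and SP110 are higher in treated cells on both HT-29 arrays, and NMI is lower in treated cells on both HT-29 arrays.

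Among sensors of RNA and effectors directed at RNA, 7 of 13 list genes were measured on all 4 arrays. Their median mean ratio was 0.20, and 6 were positive, against 51.2% of all named genes. The labels' order gave a median of 0.11 and 5 positive, against 56.7%. RIGI encodes RIG-I, which senses viral RNA with a 5′ triphosphate. In DLD-1 its intensity was 1262.3 in treated and 498.8 in untreated cells on array 1, and 673.2 in treated and 247.8 in untreated cells on array 2. Treated cells were the brighter on both, with ratios of 0.56 and 1.30 and a mean of 0.93 ± 0.52 (SD over 2 arrays), or 1.91-fold. The DLD-1 mean of RIGI in the labels' order was −0.37, of the opposite sign. In HT-29 it had 87.2 in treated and −121.2 in untreated cells on array 1, the untreated signal not above background, and 1196.3 in treated and 1417.7 in untreated cells on array 2, giving ratios of 0.99 and −0.38. The mean over both lines was 0.62, with a limma p of 0.00409 and an adjusted p of 0.400, and 0.16 in the labels' order.

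IFIT1, which binds the 5′ ends of foreign RNA, had ratios of 0.37 and 0.59 in DLD-1 and 0.73 and 0.24 in HT-29. On DLD-1 array 1 it had 1443.9 in treated and 729.9 in untreated cells, and on DLD-1 array 2 it had 828.2 in treated and 636.6 in untreated cells. On HT-29 array 1 it had 944.5 in treated and 400.7 in untreated cells, and on HT-29 array 2 it had 5518.1 in treated and 3984.0 in untreated cells. The means were 0.48 ± 0.16 in DLD-1 and 0.49 ± 0.35 in HT-29 (SD over 2 arrays each), and −0.11 in DLD-1 and 0.25 in HT-29 in the labels' order. Over both lines the mean was 0.48, with a limma p of 0.0252 and an adjusted p of 0.788, and 0.07 in the labels' order. IFIT3, its partner, had ratios of 0.14, 0.10, 0.10 and −0.31, and IFIT5 had 0.30, −0.25, 0.31 and 0.42, each given for the DLD-1 and then the HT-29 arrays.

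OAS1, which makes the 2-5A signal that activates RNase L, had a mean of 0.32 from a pair of probes that differ. The first probe had ratios of 0.81, −0.23, 1.30 and −0.03 and the second −0.05, 0.05, −0.05 and 0.78 on the DLD-1 and then the HT-29 arrays. IFIH1, the gene of the sensor MDA5, had −0.20 and 0.65 in DLD-1 and −0.55 and 0.24 in HT-29, and OASL had −0.60 and 0.60 in DLD-1 and 0.18 and −0.28 in HT-29. Neither kept a sign within a line. EIF2AK2, the gene of the kinase PKR, was measured in HT-29, at −0.84 and 0.11. Of the dim members of this group, ISG20, an RNA exonuclease, had 987.1 in treated and −19.7 in untreated cells on HT-29 array 1, and 702.6 in treated and 87.6 in untreated cells on HT-29 array 2, but the treated channel was above background only on array 1. OAS2 was above background in no channel, and OAS3 gave ratios of −1.14 and −1.62 in HT-29 without being measured there.

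The transcription factors IRF1, IRF7 and IRF9 were grouped with NMI, which interacts with such factors. Of these 4 measured members only IRF7 had a positive mean, and the median was −0.16. In the labels' order the median was −0.26, and IRF7 was again the single positive one. Over all named genes 51.2% were positive in the working reading and 56.7% in the labels' order. NMI, a protein that interacts with STAT proteins, was lower in treated HT-29 cells in the working reading, with 368.9 in treated and 857.9 in untreated cells on array 1, and 827.1 in treated and 1660.5 in untreated cells on array 2. Treated cells were the dimmer on both, with ratios of −1.16 and −0.99 and a mean of −1.08 ± 0.12 (SD over 2 arrays), so that untreated exceeded treated 2.11-fold. The HT-29 mean of NMI in the labels' order was −0.08. Array 2 fell just short of the 2-fold threshold. In DLD-1 NMI had ratios of −0.60 and 0.35, which became −0.02 and −0.06 with block medians set to 0, while those of HT-29 became −0.74 and −0.83. The mean over both lines was −0.60, with a limma p of 0.00523 and an adjusted p of 0.442, and −0.28 in the labels' order. Without DLD-1 array 2 the mean of NMI was −0.84 with an adjusted limma p of 0.0164, and over the other settings tried its adjusted p lay between 0.372 and 1.00.

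IRF7, which drives interferon genes, had a mean of 0.33, and its probes differed: the first had ratios of 1.27, 0.02, 0.12 and 0.95, the second 0.29, −0.07, 0.32 and −0.25 on the DLD-1 and then the HT-29 arrays. IRF1 had −0.64 and 0.36 in DLD-1 and −0.33 and −0.40 in HT-29. IRF9, which binds DNA in its complex with STAT2, had −0.57 and 0.10 in DLD-1 and −0.31 and 0.53 in HT-29. STAT2 itself was named only by the description in the scanner files, on 2 spots, and was not counted. Its ratios were 0.66, −0.31, 0.47 and 0.38 on one spot and 0.63, −0.27, 0.79 and −0.44 on the other.

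Of the proteins of nuclear bodies and TRIM proteins, all 4 measured members had positive means, between 0.04 and 0.41, against 51.2% of all named genes. In the labels' order 3 of 4 were positive, against 56.7%. SP110, a component of nuclear bodies, had in HT-29 3230.6 in treated and 1317.2 in untreated cells on array 1, and 2590.5 in treated and 1368.7 in untreated cells on array 2. Its ratios there were 1.20 and 0.59, with a mean of 0.90 ± 0.43 (SD over 2 arrays), and in DLD-1 they were 0.27 and −0.96, with a mean of −0.35. A dim second probe of SP110, which was not measured, had 0.60 and −0.53 in HT-29 and −0.38 and 0.31 in DLD-1. With the sign of array 2 turned the means of SP110 were 0.30 in HT-29 and 0.62 in DLD-1. IFI16, a sensor of DNA, had the largest mean of this group, 0.41, which rests on 1 array: its ratios were −0.29 and 1.67 in DLD-1 and 0.12 and 0.13 in HT-29, and untreated signal on DLD-1 array 2 did not exceed background. The mean of IFI16 was −0.49 in the labels' order. A dim second probe of IFI16, above background in no channel, had −0.15 and −0.02 in DLD-1 and 0.54 and 0.76 in HT-29. TRIM21, an antibody receptor inside cells, had ratios of 0.07 and −0.04 in DLD-1 and 0.66 and 0.26 in HT-29, and SP100 had 0.05 and −0.00 in DLD-1 and 0.45 and −0.35 in HT-29.

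The interferon-induced GTPases had 2 measured members among 4. GBP2, a guanylate-binding protein, had ratios of 0.52 and 0.21 in DLD-1 and 0.55 and 0.12 in HT-29, with a mean of 0.35 and 0.19 in the labels' order. GBP1 had −0.11, −0.04, 0.51 and −0.67 on the DLD-1 and then the HT-29 arrays. MX2 was measured in DLD-1 only, at 0.06 and −0.03, and MX1, a GTPase that blocks influenza virus, in neither line. MX1 exceeded background on DLD-1 array 2, at 440.4 in treated and 362.8 in untreated cells, and on HT-29 array 1, at 516.5 in treated and 357.2 in untreated cells. Among the other induced genes, 5 of 8 list genes were measured and all 5 had positive means, none above 0.18, against 51.2% positive over all named genes. In the labels' order 1 of 5 was positive, IFI35, against 56.7%, and the other means were −0.04 for IFI30, −0.06 for LGALS3BP, −0.13 for IFI6 and −0.30 for IFI44. IFI30, a lysosomal thiol reductase, had ratios of 0.29 and 0.06 in DLD-1 and 0.00 and 0.38 in HT-29. LGALS3BP, a secreted glycoprotein that binds galectins, had 0.15 and −0.05 in DLD-1 and 0.06 and 0.52 in HT-29. IFI35, a partner of NMI, had 0.41 and −0.11 in DLD-1 and −0.06 and 0.34 in HT-29, and IFI44 had −0.31 and 0.21 in DLD-1 and −0.18 and 0.49 in HT-29. The 2 probes of IFI6, a mitochondrial protein, differed in sign on both DLD-1 arrays and on HT-29 array 2. The first had ratios of 0.80, 0.58, −0.59 and −0.04 on the DLD-1 and then the HT-29 arrays, and the second −0.32, −0.19, −0.12 and 0.47. Their averages were 0.24 and 0.19 in DLD-1 and −0.36 and 0.21 in HT-29. XAF1, which binds an inhibitor of apoptosis, exceeded background in 1 channel only, that of untreated cells on HT-29 array 1.

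On all 4 arrays 4 of 28 members were positive, namely IFIT1, GBP2, IFITM2 and IFI30, or 14.3%, against 4.31% of all named genes. None was negative on all 4, against 3.59%. In the labels' order SP100 was positive on all 4, against 10.2% of all genes, and IRF9, IFI44 and IFIH1 were negative on all 4, against 5.64%. No member kept opposite signs in the 2 lines, where 722 of 9090 named genes, or 7.94%, did. Within a line, 9 of 30 members were positive on both DLD-1 arrays, against 15.8% of all genes, and 14 of 29 on both HT-29 arrays, against 28%. On both arrays 1 of 30 members was negative in DLD-1, against 16.9%, and 2 of 29 in HT-29, against 28.4%. With the sign of array 2 turned, 13 of 30 were positive on both DLD-1 arrays, against 39.1%, and 7 negative, against 28.1%, while on both HT-29 arrays 5 of 29 were positive, against 25.7%, and 8 negative, against 18%.

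The members' ratios by promoter class are given without a test. The 13 measured members with an ISRE core had a median mean ratio of 0.17, with 11 positive. The 10 without had 0.23, with 8 positive, where 51.2% of all named genes were positive. The 8 with a CpG ratio above 0.6 had 0.19 and the 15 at or under it 0.17. In the labels' order these medians were −0.06 with an ISRE core and 0.09 without, and 0.01 above a CpG ratio of 0.6 and 0.03 at or under it. Mean signal was compared for genes measured on both DLD-1 arrays, 10185 named genes with 30 members among them. None of these members differed by more than 20 percentile points without overlap of the lines' arrays. DLD-1 was the higher in this way for 3.52% of these named genes and HT-29 for 0.933%. Genes measured only in HT-29 did not enter, so these shares do not compare the lines.

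Other genes of the interferon pathway, 104 in all, were set beside the members. They comprised ligands, receptors, JAK-STAT components, negative regulators, sensors and adaptors, further induced genes and an ISG15 conjugation gene. Of these 79 were named on the array and 53 were measured on all 4 arrays. None passed limma after adjustment, against 0.231% of all named genes. At an unadjusted limma p of 0.05 none passed, against 5.02%, and 3 did in the labels' order, against 11%. Their median mean ratio was 0.02, and they ranged from −0.36 to 0.36. Of the 53, 29 were positive, against 51.2% of all named genes. None was at least 2-fold in size with 1 sign on both arrays of a line. PTPN6, a phosphatase that restrains JAK signalling, was the single such gene with 1 sign on all 4 arrays in the working reading. Its ratios were −0.12 and −0.11 in DLD-1 and −0.63 and −0.57 in HT-29, with an adjusted limma p of 0.987. Of all named genes 3.59% were negative and 4.31% positive on all 4 arrays. In the labels' order PTPN6 had mixed signs. There IL10RB, PTPN11, TBK1, ZBP1 and IRF8 were positive on all 4 arrays, against 10.2% of all named genes. PIAS1, MOV10 and APOL3 were negative on all 4, against 5.64%. STING1 and CGAS were not named on the array, and IFNB1, IFNAR1, IFNGR1, JAK2 and CXCL10 were named there but not measured on all 4 arrays.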

How the data were processed

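Total RNA of DLD-1 and HT-29 cells was amplified and labelled with Cy3 and Cy5, per the labels' protocols. The deposited scanner files give, per spot, the linear intensity and local background of both channels, and the authors' log2 ratio of the channels. The deposited series table holds log2 ratios of channel 2 over channel 1. The scanner and its software were not stated in the sources. From the intensities, background was corrected with normexp (offset 50) and 1 loess curve per array in limma 3.58.1 under R 4.3.3, with control spots and 49 bad spots left out. Probes of a gene were averaged. Names came from the platform table, else the scanner description, updated through RefSeq GRCh38.p14; members were taken by platform symbol alone. Arrays 1 and 2 of a line were averaged and count as 1 replicate. A two-sided moderated test (lmFit, eBayes) set the 2 averages against 0, and p-values were adjusted over 9090 genes by the method of Benjamini and Hochberg. A sign-flip test of 2 values cannot go below a p of 0.5. In the working reading the moderated SE was the same, 0.216, for each member and each other pathway gene tested. Their p-values therefore rank genes by the size of the mean and do not reflect a gene's own spread between the lines. They speak only of these samples. The limited number of arrays limits precision. The steps were tested on simulated data. Members given values were those with an adjusted limma p under 0.05, a 2-fold ratio of 1 sign on both arrays of a line under either reading, 1 sign on all 4 arrays, a signal switched on in a line, or a place among the 10 largest mean ratios; others were added by role. Members and lists were chosen with earlier results of these data known. Alternatives changed 1 choice at a time.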

Additional observations from a re-analysis of the deposited data

How the results depend on the processing

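Results were recomputed under up to 12 other settings; those of 1 line have at most 10, since the arrays of the other line do not enter, and a gene has none where a filter removes it. The count of members past limma was 0 in 9 of them; it was 2 without the filter on dim probes (IFITM1 and ISG20) and ranged from 0 to 2 when 1 array was left out, with ISG15 (1.07, adjusted limma p 0.000797) and NMI (−0.84, adjusted limma p 0.0164) without DLD-1 replicate 2, and IFITM1 without HT-29 replicate 1. The lone array then stands for its line. In DLD-1, the count at least 2-fold higher was 0 in the labels' channel order, 0 with both channels above background and 0 with the deposited ratios. IFITM1 did not enter with both channels above background or with the deposited ratios, where 24 members were counted, so those counts say nothing of its ratio. With an array left out the DLD-1 count was 1 to 3 (IFI16, IFITM1 and RIGI without replicate 1). In HT-29 it was 0 in the labels' order, 0 with array medians in place of loess, 0 with block medians set to 0, 0 with the deposited ratios, 2 without the filter (ISG15 and ISG20), and 1 to 3 with an array left out (ISG15, ISG20 and UBE2L6 without replicate 2). The HT-29 count at least 2-fold lower was 1 with subtracted intensities (NMI), 1 without the filter (OAS3), 1 with the deposited ratios (NMI), and 0 to 3 with an array left out (NMI, OAS3 and XAF1 without replicate 2). The members' median in DLD-1 was 0.0041 with the deposited ratios and 0.025 with both channels above background, against 0.073 as reported, and ranged from 0.098 to 0.22 with an array left out. That in HT-29 was −0.0042 in the labels' order and 0.12 to 0.34 with an array left out, and that over both lines was 0.049 in the labels' order and 0.13 to 0.27 with an array left out. Single genes whose mean over both lines changed sign were IFI16, at −0.49 in the labels' order, and −0.081 without DLD-1 replicate 2 to 0.90 without DLD-1 replicate 1, and IFITM2, at −0.026 in the labels' order. The mean of IFITM1 in DLD-1 was 3.96 with subtracted intensities and 0.52 in the labels' order, and that of ISG15 in HT-29 was 0.42 in the labels' order. The cause was not tested. The other pathway genes gave 0 adjusted limma calls under each setting, and 0 to 10 at an unadjusted p of 0.05. No paired analysis was possible because the labels' replicate numbers name dye orientations of 1 line, beyond the pairing of treated and untreated RNA that each array's ratio already holds. Signal near background limits the dim members, and the direction of the dye-exchanged arrays limits each line's result.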
